A study of Mus musculus with 16 samples.

Results

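The amino acid transporter families described here are the mouse genes of the solute carrier (Slc) families 1, 3, 7, 36, 38 and 43. Members were taken as the protein-coding genes of the deposited count table whose symbol joins one of these family names to a member number, a rule that uses no measured value. The rule found 42 members among 55385 genes, of which 21897 were protein-coding. Family Slc1a gave 7 members, Slc3a 2, Slc7a 15, Slc36a 4, Slc38a 11 and Slc43a 3.

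The libraries came from male C57BL/6 mice acquired at 12 weeks of age, with 3 mice in each of 2 treatment groups. Fed mice had free access to chow, fasting mice had none for 24 h, and both were killed at 10 am. Kidney, liver, spleen, lung, heart, muscle and both white and brown adipose of the 3 mice of a group were pooled, so each tissue has 1 fed and 1 fasting library, 16 in all, without replicate libraries. No allele, drug or other agent was used in either group, and the muscle and the white adipose depot taken are not given in the sources used here. A test within 1 tissue therefore compares 2 libraries and not the 2 conditions, and only a change shared by tissues could be tested against a spread.

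Amino acids cross membranes through carriers of several unrelated families. Slc1a proteins take up glutamate with sodium or exchange small neutral amino acids. Slc3a proteins do not carry amino acids themselves. They are heavy chains that bring the light chains of family Slc7a to the cell surface. Most of the other Slc7a proteins carry arginine, lysine and ornithine. Slc36a proteins move small amino acids with protons, at lysosomes or the cell surface, and Slc38a proteins move glutamine, alanine and other neutral amino acids with sodium. Of the Slc43a proteins, LAT3 (Slc43a1) and LAT4 (Slc43a2) carry leucine and other large neutral amino acids without an ion. Slc43a3 carries purine nucleobases and is in the family by sequence, not by an amino acid substrate. In a fast, muscle releases alanine and glutamine and liver takes them up for glucose and urea.

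Library totals ran from 14245178 to 36069968 counts, so that a count of 3 stood for 0.0832 to 0.2106 CPM, the count after each library is scaled to the same total. Counting intervals are not given, since they would cover counting error only and the mice of a pool cannot be separated. Marker sums of hepatocytes, skeletal and cardiac muscle fibres, adipocytes, brown adipocytes, proximal tubule, lung epithelium and B cells were each highest in the tissue of that label. Low levels of kidney genes were found in some other tissues. Kap, an abundant proximal tubule transcript, was at 18.2 to 40.6 CPM in white adipose, heart, spleen and lung, which was 0.104% to 0.25% of its kidney level, and at 0 to 0.281 CPM in muscle, liver and brown adipose. Of 128 marker sums, 16 lists in 8 tissues, 18 differed by more than 1.5 times between the 2 libraries of a tissue at 50 CPM or more in one of them, and these stand with the calls of that tissue. Muscle had none.

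Promoter sequences are shown for 4 members, picked by hand after their values were seen, as examples of windows that hold a motif tied by name to nutrient state in members that changed in at least 1 tissue. Slc38a5, Slc38a7 and Slc7a7 met the same description and are not printed. They are RefSeq sequences of GRCm38.p6, from 250 bases before to 50 bases after a gene's start, 5′ to 3′ on the gene's strand. Capitals mark CACGTG (the E-box of TFEB and related factors), TTGCATCA (a C/EBP-ATF composite element, TGATGCAA on the other strand) or GTAAACA (the core of FoxO and other forkhead factors, TGTTTAC on the other strand). The windows are Slc43a1 at chr2:84840073-84840372 (+), Slc36a1 at chr11:55204090-55204389 (+), Slc7a11 at chr3:50443564-50443863 (−) and Slc1a4 at chr11:20332664-20332963 (−).
Slc43a1: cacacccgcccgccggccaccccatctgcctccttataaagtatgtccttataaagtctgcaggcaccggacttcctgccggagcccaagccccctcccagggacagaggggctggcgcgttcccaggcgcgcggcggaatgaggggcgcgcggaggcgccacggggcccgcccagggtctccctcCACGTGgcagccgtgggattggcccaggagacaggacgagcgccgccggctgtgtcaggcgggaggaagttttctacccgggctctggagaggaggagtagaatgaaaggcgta
Slc36a1: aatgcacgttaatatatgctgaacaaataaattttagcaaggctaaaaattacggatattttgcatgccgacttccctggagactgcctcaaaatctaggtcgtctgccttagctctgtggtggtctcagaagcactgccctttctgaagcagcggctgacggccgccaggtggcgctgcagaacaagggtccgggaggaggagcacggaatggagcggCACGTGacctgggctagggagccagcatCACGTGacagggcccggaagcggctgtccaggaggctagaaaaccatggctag
Slc7a11: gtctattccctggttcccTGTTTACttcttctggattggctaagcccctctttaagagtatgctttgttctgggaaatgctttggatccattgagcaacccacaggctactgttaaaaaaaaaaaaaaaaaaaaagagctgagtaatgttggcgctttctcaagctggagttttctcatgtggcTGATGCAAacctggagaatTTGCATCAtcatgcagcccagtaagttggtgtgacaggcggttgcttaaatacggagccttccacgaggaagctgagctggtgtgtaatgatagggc
Slc1a4: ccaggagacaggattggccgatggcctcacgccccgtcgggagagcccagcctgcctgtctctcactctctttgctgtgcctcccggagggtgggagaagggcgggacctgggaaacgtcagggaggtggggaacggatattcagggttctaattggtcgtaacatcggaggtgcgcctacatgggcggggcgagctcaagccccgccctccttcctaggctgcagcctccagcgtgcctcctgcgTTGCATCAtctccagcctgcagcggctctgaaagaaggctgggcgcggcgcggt

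The Slc43a1 window held CACGTG once, at -64 from the start. The Slc36a1 window held it at -31 and at -3. The Slc7a11 window held the composite element on both strands, at -66 and at -47, and the Slc1a4 window held it at -4. Of the 42 members, 31 matched a promoter entry, giving 42 windows. CACGTG stood in 7 of these windows (16.7%), against 7.15% of all 32851 promoters. Among them were those of Slc1a6, Slc1a7 and Slc7a14, which were below 1 CPM in every library. TTGCATCA stood in 4 (9.52%, against 0.895%), belonging to 3 genes, the third being Slc7a7. The 2 Slc7a7 windows with it overlap and hold the same site, which is counted in each. GTAAACA stood in 2 (4.76%, against 3.65%), and the longer element TGATGNAAT in none (0.965% of all promoters). All were searched on both strands, and TTGCATCA and TGATGNAAT share letters. A match is a description of these windows and no evidence of binding. Slc43a3 has no entry.

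The members' levels were set side by side per length, as TPM (the count over the gene's length, scaled to the same total in each library). By the mean of the 2 libraries, their summed TPM was highest in kidney (3734 fed and 3465 fasting) and white adipose (2655 and 2013, with fasting liver at 2149) and lowest in heart (419.7 and 473). Muscle (463 and 682) and spleen (563 and 592) came next above heart and overlapped. The 2 leading members made up most of it in kidney, liver and both adipose tissues. Of the 42 members, 17 were at 1 CPM or more in all 16 libraries and 5 were below 1 CPM in every one (Slc1a6, Slc1a7, Slc7a14, Slc36a3 and Slc38a8).

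**Figure D1:**
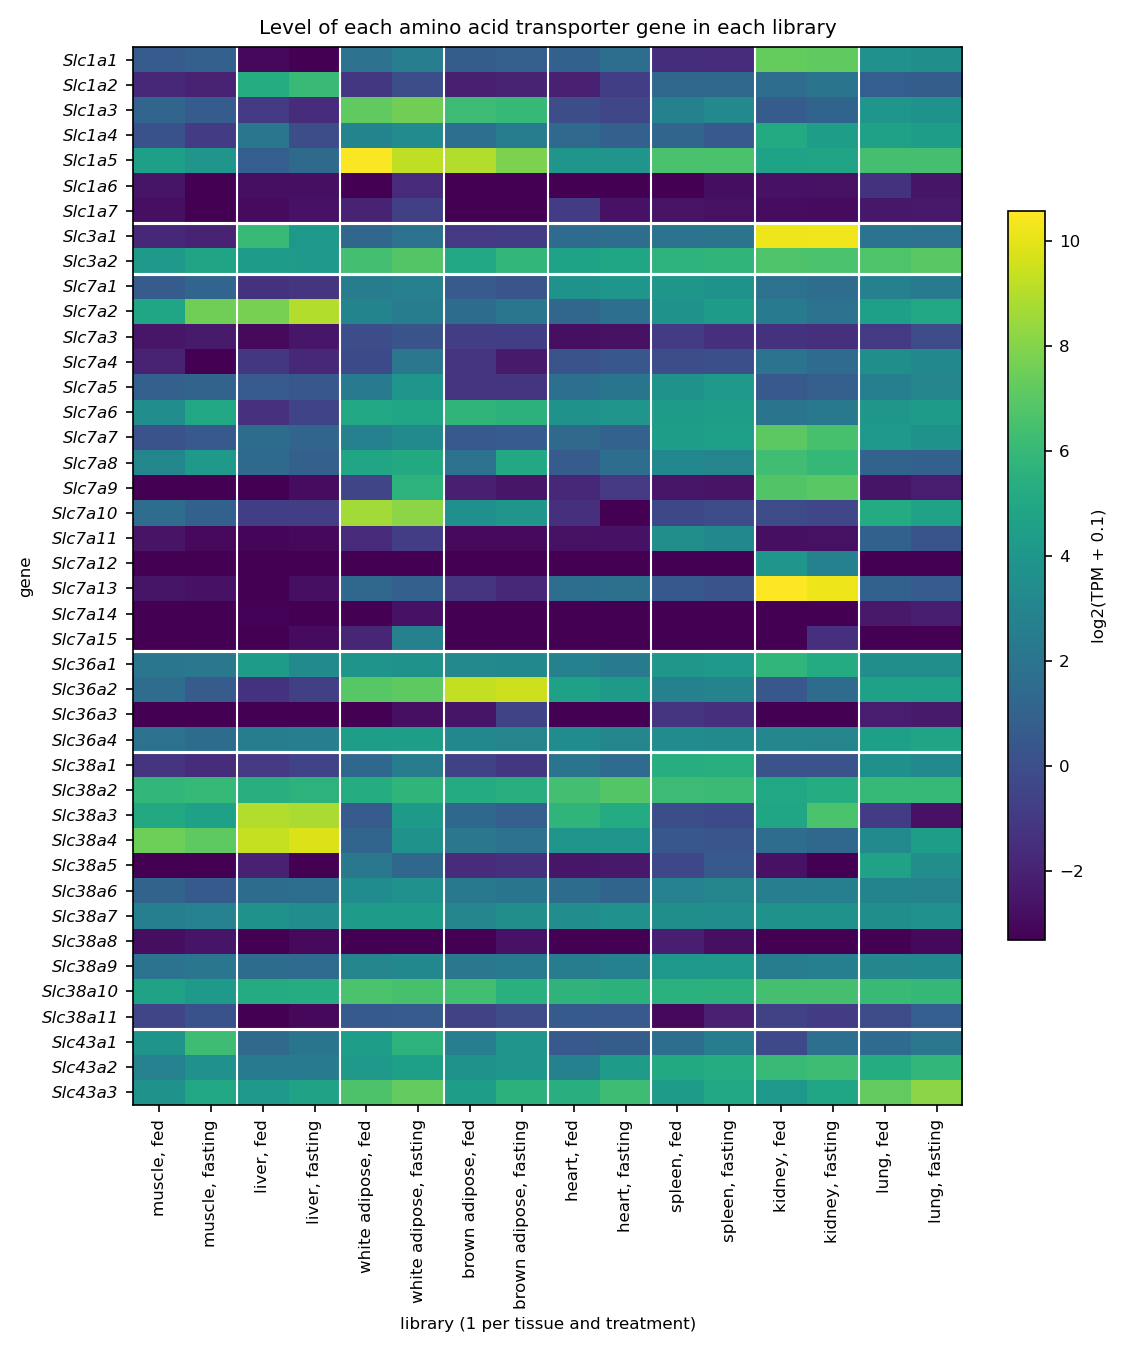
Level of each of the 42 members (rows, grouped by family) in each of the 16 libraries (columns), as log2(TPM + 0.1) by colour. Slc38a2, Slc38a10 and Slc3a2 are bright in every column, while Slc7a13 and Slc3a1 are brightest in the kidney columns and Slc38a3 and Slc38a4 in the liver columns.

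To ask where each member is high, each tissue's 2 libraries were compared with the mean of the other 7 tissues in 1 edgeR fit across 23580 genes, in which 37 members passed the filter on low counts. A member was called higher at an adjusted p under 0.05 and a log2 difference above 1. Kidney had 14 such members of 37, against 18% of all genes tested, and white adipose had 13, against 17.3%. Lung had 11 (23.2% of all genes), liver 7 (16.3%), spleen 7 (24.8%), muscle 6 (15.7%), brown adipose 6 (12.1%) and heart 6 (14.1%). The filter needs counts in 2 libraries, so a gene expressed in 1 tissue alone, such as Slc7a12, can pass only by being high there. These counts are a description of the members that passed. The 13 of white adipose include Slc7a9, at 0.558 CPM fed (13 counts) and 41.6 CPM fasting (1140 counts), and Slc1a7, on 4 and 15 counts. That fasting library also held more RNA of epithelial genes, as given below. A filter that needs counts in 8 libraries, chosen after seeing the data, kept 32 members and left out Slc1a7, Slc7a9, Slc7a11, Slc7a12 and Slc38a5. It gave kidney 12 (16.3% of all genes), white adipose 10 (15.4%), lung 9 (19.2%), liver 7 (16.8%), muscle 7 (17%), brown adipose 6 (12.7%), spleen 5 (21.4%) and heart 5 (14.7%). The counts depend also on the scaling, which was TMM. On total counts white adipose had 21 members (27.8% of all genes), lung 17 (35.8%), kidney 14 (19.1%), spleen 12 (39.3%) and muscle 3 (7.08%), with liver 5 (10.2%), brown adipose 6 (12.8%) and heart 5 (12% of all genes).

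The kidney pair was Slc7a13 (AGT1) and Slc3a1 (rBAT), the light and the heavy chain of a proximal tubule cystine, aspartate and glutamate carrier. Slc7a13 was at 1131 CPM in the fed and 892 CPM in the fasting kidney, against 0 to 2.29 CPM in the other 14 libraries. Its log2 difference was 11.36 ± 0.12 (SE, adjusted p = 2.83e-13). Slc3a1, mutated in cystinuria, was at 931 and 977 CPM, against 0.097 to 66.1 CPM elsewhere (log2 difference 8.94 ± 0.27 SE, adjusted p = 3.00e-10). Both kidney libraries of each stood above all others. Slc7a9 (b0,+AT), the other light chain of rBAT and the second cystinuria gene, was at 103 and 121 CPM in kidney, and elsewhere at 0 to 41.6 CPM, with the highest of those values in fasting white adipose. Slc1a1 (EAAC1), the tubule's glutamate and aspartate uptake carrier, was at 452 and 408 CPM against 0 to 37.6 CPM (7.11 ± 0.15 SE, adjusted p = 1.60e-11). Per length, Slc3a1 reached 1183 TPM fed and 1241 TPM fasting, and its light chains Slc7a9 and Slc7a13 together 1634 and 1333 TPM.

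On the other side of the tubule cell, Slc7a7 (y+LAT1) and Slc7a8 (LAT2) pair with the heavy chain Slc3a2. Slc7a7 was at 155 and 107 CPM in kidney against 0.955 to 30.6 CPM elsewhere (log2 difference 4.63 ± 0.13 SE, adjusted p = 1.64e-10). Slc7a8 was at 139.7 and 107 CPM against 2.5 to 57.4 CPM (3.41 ± 0.40 SE, adjusted p = 2.92e-05). Slc7a12 (asc-2) was at 9.31 and 4.07 CPM in kidney and had no count in the other 14 libraries, so no fold is given.

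Slc7a13 was also called higher in heart, at 2.15 and 2.29 CPM (log2 difference 1.55 ± 0.21 SE, adjusted p = 0.000116). These values were 0.19% and 0.257% of its kidney level, beside 0.216% and 0.25% for Kap in the same libraries and 0.146% and 0.257% for the tubule phosphate carrier Slc34a1. The part of kidney RNA in this call was not tested. The same holds for Slc7a13 in white adipose, spleen and lung, where it was at 0.934 to 1.63 CPM.

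Liver was marked by carriers of glutamine and alanine, arginine and glutamate. Slc38a4 (SNAT4) was at 1179 CPM fed and 1560.4 CPM fasting, against 2.05 to 208 CPM in the other libraries (log2 difference 7.53 ± 0.30 SE, adjusted p = 2.25e-09). Slc38a3 (SNAT3), a glutamine carrier that also runs outward, was at 1109 and 957 CPM against 0.111 to 184 CPM (7.32 ± 0.48 SE, adjusted p = 1.80e-07). Slc1a2 (GLT-1), known in brain as the main glutamate uptake carrier, was at 217 and 341 CPM against 0.517 to 18.3 CPM (7.27 ± 0.18 SE, adjusted p = 3.35e-11). Slc7a2 (CAT2), a cationic amino acid carrier, was at 825 and 1845 CPM against 6.62 to 446 CPM (6.07 ± 0.33 SE, adjusted p = 3.39e-08). In each of these 4, both liver libraries stood above the other 14. Slc3a1 in liver was second to kidney, at 66.1 and 15.5 CPM (4.45 ± 0.30 SE, adjusted p = 2.00e-07).

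White and brown adipose shared 3 of their 4 leading members, in a different order. Slc1a5 (ASCT2), the exchanger of glutamine, alanine and serine, led white adipose with 1887 CPM fed and 784 CPM fasting, and was second in brown adipose with 700.1 and 325 CPM. All 4 values were above the range of the 12 libraries of the other tissues, 2.95 to 164 CPM. Slc36a2 (PAT2), a known surface marker of brown fat, led brown adipose with 685 and 794 CPM, against 126 and 144 CPM in white adipose and 0.434 to 28.2 CPM elsewhere. Slc1a3 (GLAST), a glutamate carrier best known from glia, was at 384 and 506 CPM in white adipose, 209 and 183 CPM in brown adipose and 0.801 to 46.1 CPM elsewhere. Slc7a10 (Asc-1), a known surface marker of white fat, was at 265.0 and 186 CPM in white adipose, 9.03 and 10.6 CPM in brown adipose and at most 27.6 CPM in the others.

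Against the mean of the other 7 tissues, the log2 differences in white adipose were 4.25 ± 0.23 (SE) for Slc1a5, 3.23 ± 0.19 for Slc36a2, 4.93 ± 0.13 for Slc1a3 and 7.0 ± 0.16 for Slc7a10, with adjusted p of 1.47e-07, 2.77e-07, 1.53e-09 and 6.10e-10. In brown adipose they were 3.09 ± 0.24, 6.48 ± 0.18, 4.02 ± 0.14 and 2.30 ± 0.21, with adjusted p of 1.92e-06, 8.47e-10, 4.66e-09 and 6.10e-06.

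Spleen stood apart by Slc7a11 (xCT), the cystine-glutamate exchanger, at 66.3 CPM fed and 49.1 CPM fasting against 0.0868 to 9.48 CPM elsewhere (log2 difference 6.46 ± 0.22 SE). The filter that needs counts in 8 libraries left Slc7a11 out, so no p is printed for it. Slc38a1 (SNAT1), a glutamine carrier, was at 282 and 289 CPM in spleen against 1.10 to 76.6 CPM (4.46 ± 0.19 SE, adjusted p = 4.00e-09). Lung came second for both. Lung itself led for Slc38a5 (SNAT5), a glutamine and serine carrier, at 20.3 and 9.01 CPM against 0 to 3.26 CPM. It led also for Slc7a4, at 17.4 and 12.8 CPM against 0 to 5.83 CPM (3.44 ± 0.43 SE, adjusted p = 4.29e-05), an orphan member whose gene overlaps P2rx6 on the other strand, itself at 15.5 and 14.5 CPM in lung. Slc7a10 and Slc7a11 were also called in lung, at log2 differences of 3.10 ± 0.18 (SE, adjusted p = 1.34e-07) and 3.14 ± 0.25 (SE).

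By mean TPM, muscle was led by Slc38a4 and Slc7a2, the first and the third member of liver. In fed muscle Slc7a2 (29.3 TPM) stood below Slc38a2 (58.5 TPM) and Slc38a3 (34.8 TPM), and in fasting muscle it stood first (186 TPM, against 139 TPM for Slc38a4). Both were at lower levels than in liver. Slc38a4 was at 208 and 155 CPM (log2 difference 4.53 ± 0.31 SE, adjusted p = 3.08e-07) and Slc7a2 at 71.5 and 446 CPM (3.52 ± 0.37 SE, adjusted p = 9.86e-06). Slc43a1 was at 21.97 and 117 CPM (3.62 ± 0.25 SE, adjusted p = 4.23e-07). Its fed CPM, on library totals, lay below both white adipose values of 39.6 and 89.6 CPM. The log2 differences are on TMM scaling, where that of white adipose was 2.21 ± 0.27 (SE), below that of muscle. Heart was led per length by the widely expressed Slc38a2 (SNAT2), an adaptive carrier of alanine and glutamine, at 86.6 and 114 TPM, and by Slc43a3 at 41.5 and 76.1 TPM. Spleen was led by Slc1a5 (95.2 and 95.5 TPM) and Slc38a2 (74.6 and 69.6 TPM), and lung by Slc43a3 (148 and 282 TPM) and Slc3a2 (106 and 131 TPM).

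**Figure D2:**
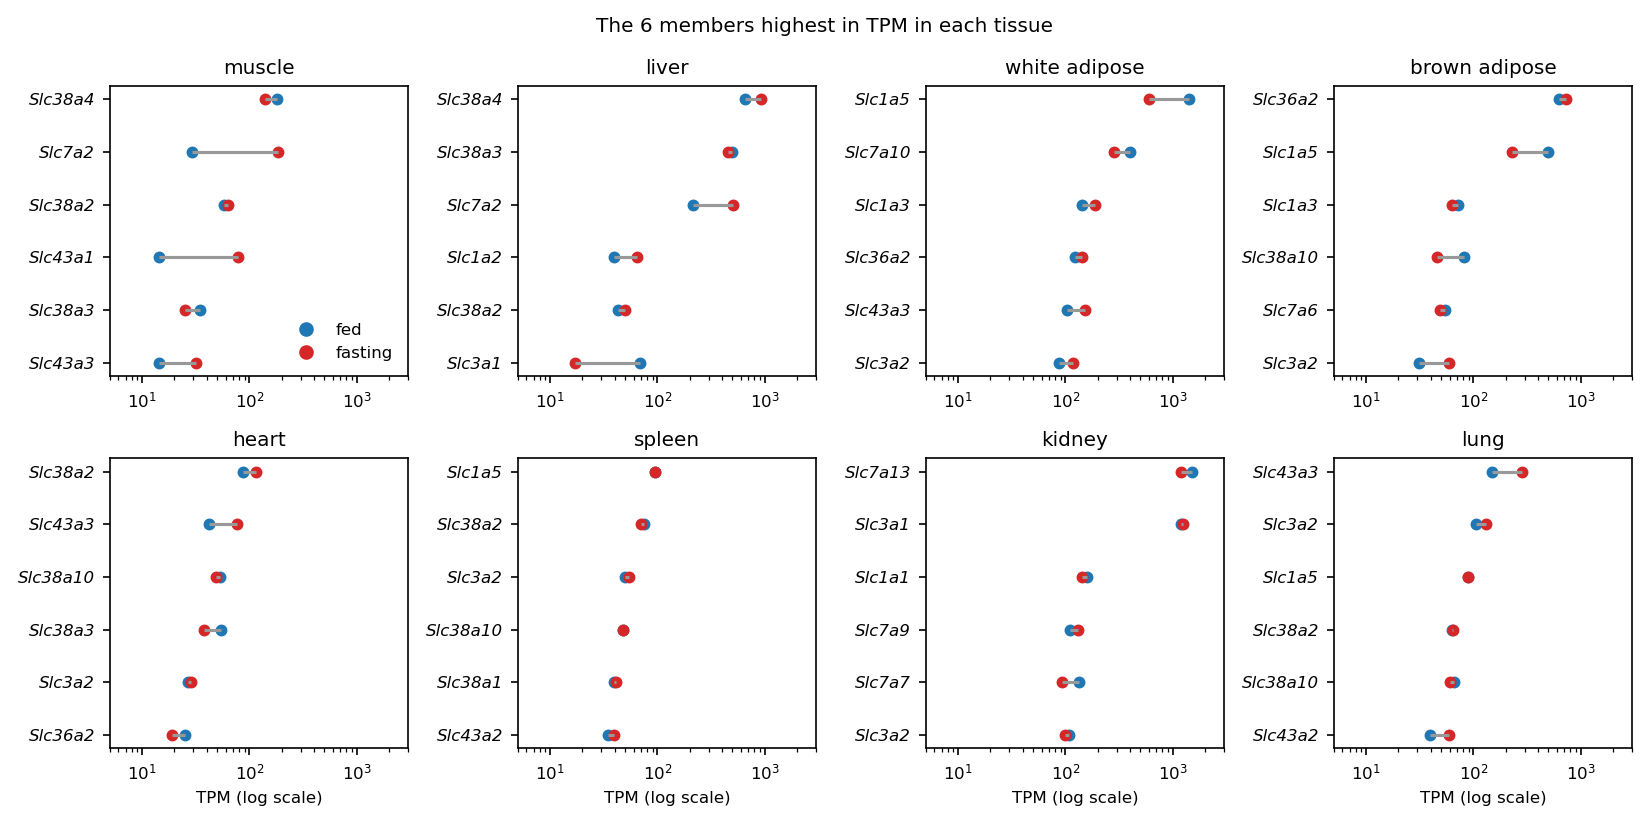
The 6 members with the highest mean TPM in each of the 8 tissues, with the fed (blue) and the fasting (red) library as points on a log TPM axis. Each tissue has its own leading member except that Slc38a4 leads muscle and liver and Slc1a5 leads white adipose and spleen.

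To ask which members changed in the same direction in most tissues, treatment was tested across the 8 tissues with the tissue as a block (7 residual degrees of freedom). The 8 tissues of a treatment came from the same 3 pooled mice, so they are not independent animals. The SE and p cover the spread between tissues, and fasting cannot be told apart from a difference between the 2 sets of mice. Slc43a3 and Slc43a1 were called higher in fasting, 2 of the 37 members tested, and no member was called lower. Of all 23580 genes, 1.03% were called higher and 0.84% lower. At an unadjusted p under 0.05 there were 8 members, all higher in fasting, against 18.6% of all genes in either direction. The median change was 0.07 (log2) over the members and -0.01 over all genes. Slc38a10 was lower in the fasting library of all 8 tissues without a call across tissues (-0.19 ± 0.10 SE, edgeR adjusted p = 0.344). By DESeq2, 4 members were called higher and none lower of the 33 that it gave an adjusted p, against 5.13% and 6.03% of the 16265 genes with one, the added members being Slc43a2 and Slc38a2.

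Slc43a3 was higher in the fasting library of all 8 tissues. Its fed and fasting values were 17.0 and 37.5 CPM in muscle, 31.9 and 45.0 CPM in liver, 147 and 214 CPM in white adipose, and 33.8 and 73.0 CPM in brown adipose. They were 58.6 and 107 CPM in heart, 37.9 and 55.9 CPM in spleen, 25.8 and 46.6 CPM in kidney, and 234 and 436 CPM in lung. The difference between tissues was larger than that between treatments, so the fed and fasting ranges overlap and only the pairs separate. The log2 change was 0.85 ± 0.09 (SE, n = 8 tissues of the same mice, edgeR adjusted p = 0.00332), and it stayed called with any 1 tissue left out (adjusted p of 0.00107 to 0.0174).

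Slc43a1 was also higher in all 8 fasting libraries, with a wider spread. Its fed and fasting values were 21.97 and 117 CPM in muscle, 6.47 and 9.49 CPM in liver, 39.6 and 89.6 CPM in white adipose, and 11.8 and 29.0 CPM in brown adipose. They were 2.50 and 2.88 CPM in heart, 7.51 and 13.2 CPM in spleen, 1.47 and 6.56 CPM in kidney, and 5.62 and 8.90 CPM in lung. The muscle and kidney pairs were farthest apart and the heart pair closest. The log2 change was 1.22 ± 0.22 (SE, n = 8 tissues of the same mice, edgeR adjusted p = 0.0277). It lost the call without muscle (1.001, adjusted p = 0.0563), without brown adipose (1.20, adjusted p = 0.0801), without lung (1.29, adjusted p = 0.0535) and without both adipose tissues (1.25, adjusted p = 0.0794).

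Slc43a1 (chr2:84838850-84863594, + strand, GRCm38) and Slc43a3 (chr2:84936579-84958509, + strand) lie 72984 bases apart, with Rtn4rl2 as the 1 protein-coding gene between them. The Slc43a1 promoter with CACGTG, printed above, belongs to a RefSeq start inside the deposited gene's span. The third member, Slc43a2 on chromosome 11, had a log2 change of 0.51 ± 0.16 (SE, adjusted p = 0.118), higher in 7 of 8 tissues.

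**Figure D3:**
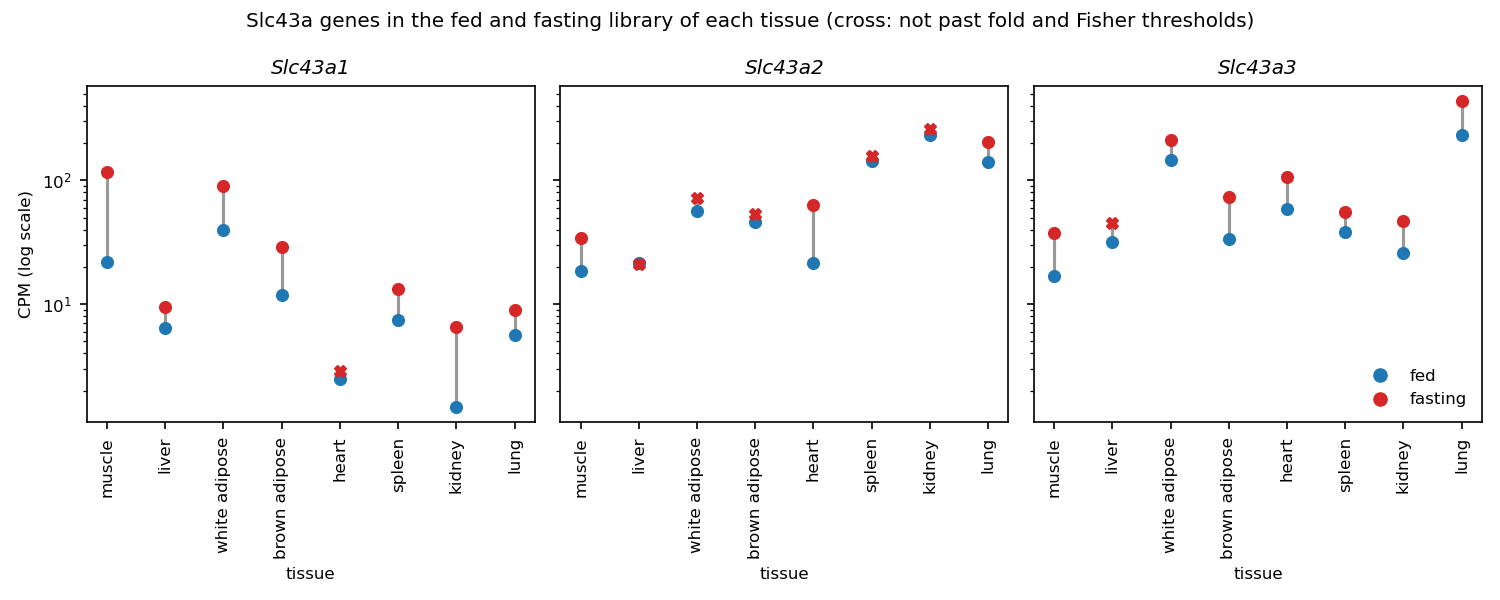
Fed (blue) and fasting (red) CPM of the 3 Slc43a genes in each of the 8 tissues on a log axis, joined by a line. A cross in place of a fasting point marks a pair that did not pass the fold and Fisher thresholds. The fasting point lies above the fed point in all 8 tissues for Slc43a1 and Slc43a3, and the longest lines are those of Slc43a1 in muscle (21.97 and 117 CPM) and kidney (1.47 and 6.56 CPM).

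Within a tissue, a member was called by the study's kind of rule, a log2 ratio of fasting to fed CPM above 0.5 in size (after adding 0.01 CPM) with a Fisher p under 0.01 between the 2 libraries. The verbs below refer to these 2 libraries. Muscle had 7 members higher and 7 lower of 36 tested, against 4.42% of all genes higher and 9.39% lower. Liver had 3 and 4 of 40 (4.46% and 9.52% of all genes), white adipose 12 and 3 of 40 (13.2% and 5.84%), brown adipose 7 and 2 of 37 (5.39% and 7.58%) and heart 6 and 2 of 36 (4.33% and 5.8%). Spleen had 2 and 1 of 39 (2.31% and 1.62%), kidney 4 and 4 of 39 (2.77% and 3.93%) and lung 5 and 4 of 40 (2.68% and 6.49%). The share of members called higher was above that of all genes in each of the 8 tissues. It ran from 5.13% against 2.31% in spleen to 30% against 13.2% in white adipose. The Slc43a genes made up 2 of the 2 higher calls in spleen, 3 of 5 in lung, 2 of 4 in kidney and 1 of 3 in liver. They made up 3 of 7 in muscle, 2 of 7 in brown adipose, 2 of 6 in heart and 2 of 12 in white adipose. The share called lower was above that of all genes by the most in muscle, 19.4% against 9.39%, and below it in brown adipose and heart. The genes tested include low and noncoding ones and were not matched to the members by level. Under TMM scaling in place of CPM, the median log2 ratio of all genes moved by 0.13 in liver and by -0.12 in white adipose and by less than 0.1 in the other tissues. The higher share of all calls then went from 32.0% to 43.2% in muscle, from 31.9% to 50.1% in liver, from 69.4% to 56.9% in white adipose, from 29.3% to 40.8% in lung, from 41.4% to 50.7% in kidney and from 42.7% to 51.3% in heart. DESeq2 size factors gave 42.5%, 49.5%, 57.3%, 39.8%, 51.5% and 51.1% in the same order.

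Other cell types' marker sums moved between the libraries in several of these tissues. In liver the adipocyte sum was 4479 CPM fed and 577 CPM fasting, which moved through Car3 (4385 and 282 CPM), with the other 9 markers higher in fasting. The brown adipocyte sum was 541 and 242 CPM there, through Elovl3 (537 and 238 CPM), and the pancreatic acinar sum 123 and 272 CPM, with 11 of 12 markers higher. In heart the hepatocyte sum was 34.2 and 107 CPM, with all 10 markers higher, and the adipocyte sum 628 and 1552 CPM, through Fabp4, Pnpla2 and Lipe, the 3 of 10 that were higher, with Lep at 0 in both. In kidney the acinar sum was 58.4 and 23.1 CPM, through Cela1 (58.1 and 22.8 CPM), with 6 of 12 markers at 0 in each library. In white adipose the hepatocyte sum was 2525 and 3969 CPM, which moved through Cyp2e1 (2393 and 3784 CPM), with Alb at 72.0 and 67.9 CPM and 6 of 10 markers higher. The lung epithelium sum there was 11.2 and 138 CPM, through Foxj1 (1.76 and 126 CPM). The part of these genes' cells in the members' calls was not tested.

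Of 307 pairs of a member and a tissue, 46 were called higher and 27 lower (15% and 8.79%), against 4.99% and 6.15% of all 220804 pairs of a gene and a tissue. Of the 42 members, 31 were called in at least 1 tissue (73.8%), 12 of them in 1 only, and 11 in none, against 36.8% called in at least 1 tissue of the 37084 genes tested in any. Slc43a supplied 17 of the 46 higher calls and none of the lower ones. Slc43a1 was called in all tissues but heart, Slc43a3 in all but liver, where its log2 ratio was 0.50 and under the fold threshold, and Slc43a2 in muscle, heart and lung. Slc43a2 in heart was at 21.4 CPM fed and 63.3 CPM fasting (log2 ratio 1.56).

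**Figure D4:**
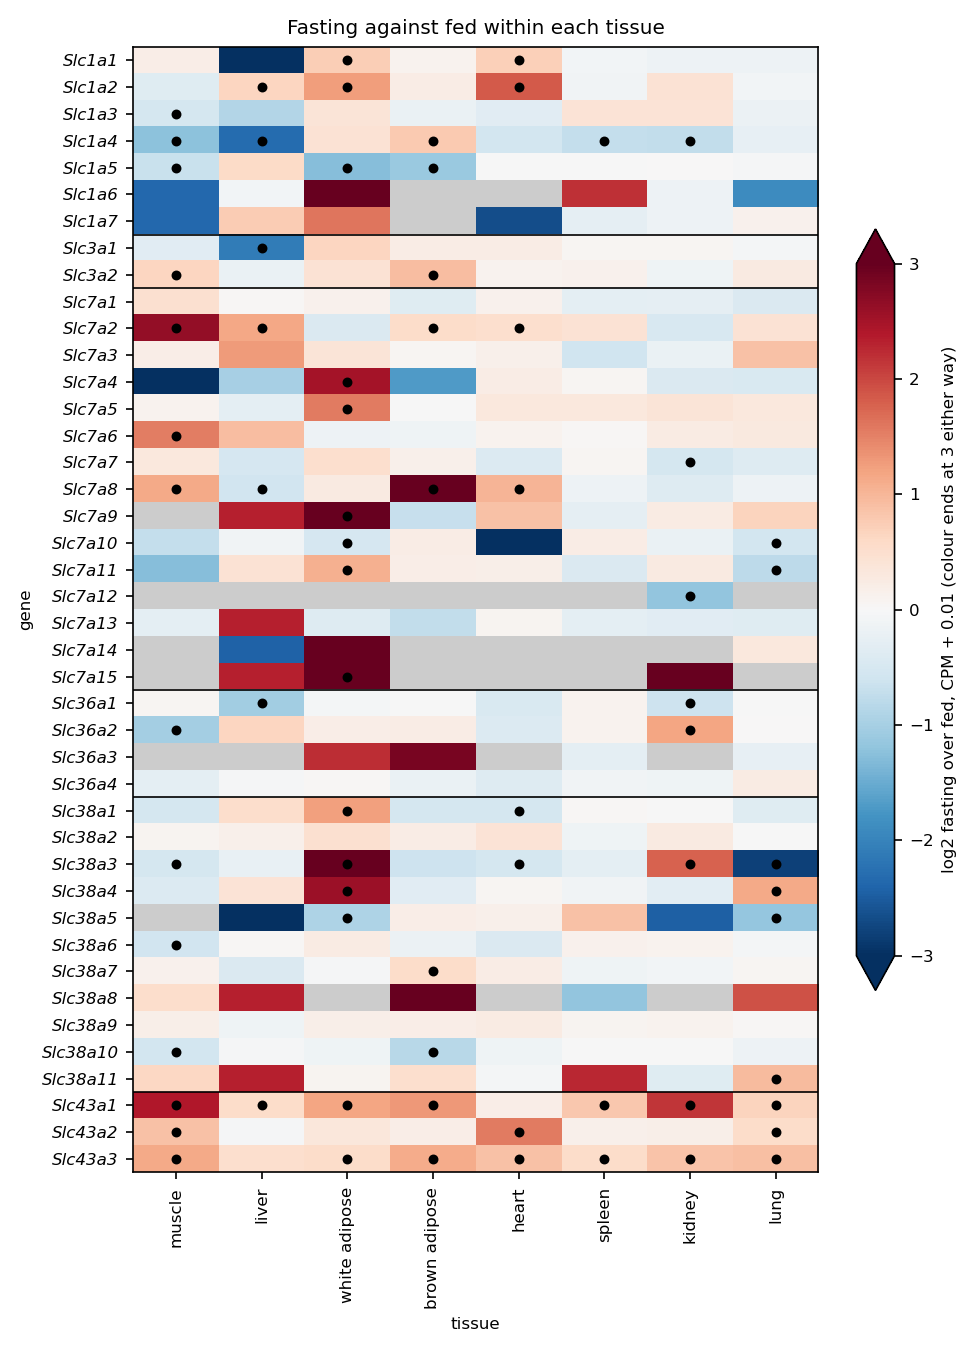
Log2 ratio of fasting to fed CPM (after adding 0.01 CPM) for each member (rows) in each tissue (columns), red for higher and blue for lower in fasting, grey where not tested. Black dots mark the 46 higher and 27 lower calls. The Slc43a rows at the bottom are red in nearly every tissue, while most other rows carry dots in few columns, and strong colour without a dot comes from genes with few counts.

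The heavy chain Slc3a2 (CD98hc) was the more even of the pair. It was at 16.3 and 25.3 CPM in fed and fasting muscle, 29.8 and 26.1 in liver, 96.8 and 129.7 in white adipose, 37.2 and 70.6 in brown adipose, 29.7 and 32.0 in heart, 72.2 and 78.4 in spleen, 133 and 122 in kidney, and 133 and 161 in lung. The muscle and brown adipose pairs were called higher (log2 ratios 0.63 and 0.92). Across tissues its log2 change was 0.31 ± 0.11 (SE, adjusted p = 0.174). Slc3a1 fell in liver from 66.1 to 15.5 CPM (log2 ratio -2.09) and was called in no other tissue. Its gene overlaps Prepl on the other strand, which was at 31.7 and 21.3 CPM in liver. Its change across tissues was -0.22 ± 0.27 (SE, adjusted p = 0.722).

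Among the light chains that join Slc3a2, the leading one per length differed by tissue. It was Slc7a10 in white adipose and lung, Slc7a6 (y+LAT2) in muscle, brown adipose and heart, and Slc7a7 in liver, spleen and kidney, in both libraries of each. Its share of these light chains' summed TPM ran from 27.9% in fed spleen to 84.6% in fed white adipose.

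Brown adipose showed the largest called change of a light chain outside white adipose. Slc7a8 (LAT2) was at 6.02 CPM in the fed and 57.4 CPM in the fasting library (log2 ratio 3.25). There, the share of the leading light chain Slc7a6 was 75.0% fed and 49.3% fasting, with Slc7a6 itself at 83.4 and 76.1 CPM. Slc7a8 also rose in muscle, from 11.05 to 24.3 CPM (1.14), and in heart, from 2.50 to 5.05 CPM (1.01), and fell in liver from 5.51 to 3.69 CPM (-0.58). In spleen, kidney, lung and white adipose it was not called. In brown adipose the skeletal muscle fibre marker sum was 3104 CPM fed and 1381 CPM fasting, with all 10 markers lower, and its part in the brown adipose calls was not tested. Slc7a6 rose in muscle from 13.4 to 39.1 CPM (1.54). Slc7a5 (LAT1), the leucine carrier of proliferating cells, rose in white adipose, whose fasting library also held more RNA of epithelial genes, from 6.05 to 18.0 CPM (1.57) and was called in no other tissue. Its change across tissues was 0.43 ± 0.17 (SE, adjusted p = 0.2). Slc7a7 fell in kidney from 155 to 107 CPM (-0.53), and Slc7a12 from 9.31 to 4.07 CPM (-1.19), on 209 and 105 counts.

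Slc7a10 and Slc7a11 each had 2 calls. Slc7a10 fell in white adipose from 265.0 to 186 CPM (log2 ratio -0.51) and in lung from 27.6 to 18.8 CPM (-0.56). Slc7a11 fell in lung from 9.48 to 5.52 CPM (-0.78) and rose in white adipose from 0.988 to 2.08 CPM (1.07). In lung the B cell marker sum was at 285 CPM fed and 145 CPM fasting and the T cell sum at 109 and 38.8 CPM, with all 8 and all 7 markers lower in fasting. The cardiomyocyte sum was 1099 and 561 CPM, with 1 of 7 markers higher, and the proximal tubule sum 351 and 205 CPM, through Lrp2 (314 and 172 CPM). The adipocyte sum was 312 and 494 CPM, with 6 of 10 higher, and the hepatocyte sum 36.6 and 61.3 CPM, through Cyp2e1 (16.4 and 45.6 CPM). Their part in the lung calls was not tested.

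Of the cationic carriers, Slc7a2 (CAT2) had the largest counts and 4 calls, all higher. It rose in muscle from 71.5 to 446 CPM (log2 ratio 2.64) and in liver from 825 to 1845 CPM (1.16). It rose also in brown adipose, from 8.97 to 13.1 CPM, and in heart, from 6.62 to 9.37 CPM. In white adipose and kidney it was lower in fasting without a call, at 22.3 and 16.4 CPM and at 15.9 and 11.4 CPM. Across tissues its change was 0.63 ± 0.31 (SE, adjusted p = 0.304). Slc7a1 (CAT1), the widely expressed carrier, was called in no tissue and ranged from 1.48 CPM in fed liver to 76.0 CPM in fed spleen.

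Slc1a5 had the largest fall in CPM of any member. It went from 1887 to 784 CPM in white adipose (log2 ratio -1.27), from 700.1 to 325 CPM in brown adipose (-1.11) and from 25.8 to 16.3 CPM in muscle (-0.66). In heart (19.8 and 19.7 CPM), spleen (164 and 161 CPM), kidney (38.9 and 39.3 CPM) and lung (133 and 129.6 CPM) the pairs were close and not called. Liver went the other way at a low level, 2.95 and 4.41 CPM (0.58), without a call. The adipocyte marker sum in white adipose was 40654 CPM fed and 32558 CPM fasting, and its part in the fall was not tested. In pooled tissue, fewer cells of a type and less RNA per cell cannot be told apart. Slc1a3, the other Slc1a member abundant in fat, was at 384 and 506 CPM in white and 209 and 183 CPM in brown adipose, with no call in either.

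Slc1a4 (ASCT1), the serine and alanine exchanger whose promoter above holds the composite element, had calls in both directions. It fell in liver from 7.16 to 1.44 CPM (log2 ratio -2.30), in kidney from 49.3 to 29.7 CPM (-0.73), in spleen from 3.53 to 2.16 CPM (-0.71) and in muscle from 1.08 to 0.453 CPM (-1.24). It rose in brown adipose from 4.34 to 7.44 CPM (0.78). Slc1a2 rose in liver from 217 to 341 CPM (0.65), and from low levels in white adipose (1.55 to 3.72 CPM) and heart (0.581 to 2.10 CPM). Slc1a1 rose in white adipose (9.53 to 15.9 CPM) and heart (4.995 to 8.26 CPM), and in kidney, its main site, was at 452 and 408 CPM without a call. In spleen, the pancreatic acinar marker sum was 632 CPM fed and 12 CPM fasting and the erythroid sum 3871 and 9412 CPM, whose part in the spleen calls was not tested.

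Slc36a1 (PAT1), the lysosomal carrier that exports small amino acids to the cytosol, fell in liver from 46.5 to 22.6 CPM (log2 ratio -1.04) and in kidney from 112 to 72.4 CPM (-0.63). In the other 6 tissues it was not called, with values between 6.52 and 40.8 CPM. Its promoter, printed above, was the one with CACGTG at a pair of positions. Slc36a2 kept its brown adipose level, at 685 and 794 CPM, and was called only at low levels, lower in muscle (2.62 and 1.29 CPM) and higher in kidney (1.43 and 3.26 CPM). Slc36a4 was called in no tissue.

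In family Slc38a, Slc38a3 (SNAT3) moved most. It rose in kidney from 54.1 to 184 CPM (log2 ratio 1.77) and fell in muscle from 49.1 to 34.4 CPM (-0.52) and in heart from 90.2 to 62.4 CPM (-0.53). In liver it was at 1109 and 957 CPM without a call. In lung the call rests on 25 and 4 counts. Slc38a4 rose in lung from 14.4 to 31.9 CPM (1.15), and in liver was at 1179 and 1560.4 CPM, and in muscle at 208 and 155 CPM, without a call in either. Slc38a5 fell in lung from 20.3 to 9.01 CPM (-1.17) and in white adipose from 3.26 to 1.71 CPM. Slc38a1 rose in white adipose from 13.0 to 30.4 CPM (1.23) and fell in heart from 21.7 to 15.1 CPM (-0.52). Slc38a10 fell in muscle from 44.1 to 30.1 CPM (-0.55) and in brown adipose from 176 to 98.8 CPM (-0.84), and was lower without a call in the other tissues. Slc38a2, which cells lacking amino acids are known to induce, was called in no tissue, with a change across tissues of 0.22 ± 0.07 (SE, adjusted p = 0.138). Slc38a9, the lysosomal arginine sensor of mTORC1, was called in none either (0.15 ± 0.06 SE, adjusted p = 0.197).

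White adipose held 12 of the higher calls, among them the 3 with the highest ratios, those of Slc7a9, Slc7a15 and Slc38a3. Slc7a9 was at 0.558 CPM fed (13 counts) and 41.6 CPM fasting (1140 counts), a log2 ratio of 6.19. Slc7a15, a light chain relative, was at 0.172 and 6.16 CPM (4 and 169 counts), and its overlapping antisense transcript at 0.601 and 1.24 CPM. Slc38a3 rose from 2.49 to 30.7 CPM (3.62), Slc38a4 from 2.96 to 17.7 CPM (2.57) and Slc7a4 from 1.03 to 5.83 CPM (2.49). Slc7a9 and Slc7a15 were at or below 0.328 CPM in every library outside white adipose and kidney.

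Genes of another tissue moved in the same library. A list of 10 genes of ciliated epithelium, chosen after the values were seen, summed to 16.6 CPM in fed and 1011 CPM in fasting white adipose, with all 10 higher. Its defining factor Foxj1 was at 1.76 and 126 CPM. A list of 8 genes of ductal epithelium, chosen in the same way, summed to 57.0 and 1347 CPM, with all 8 higher, among them Lrp2 (34.9 and 709.6 CPM) and Pax8 (1.07 and 52.6 CPM). The list of 10 epididymis genes went the other way, from 13.2 to 1.20 CPM, with 5 of them at 0 in the fasting library. Kap was at 20.4 and 18.2 CPM and Slc34a1 at 5.07 and 6.96 CPM, so the proximal tubule sum of 69.1 and 747 CPM moved through Lrp2. The part of these cells was not tested in any of the 12 white adipose rises, those of Slc7a9, Slc7a15, Slc38a3, Slc38a4, Slc7a4, Slc7a5, Slc38a1, Slc7a11, Slc1a2, Slc1a1, Slc43a1 and Slc43a3. In white adipose 13.2% of all genes were called higher, the largest such share of the 8 tissues.

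**Figure D5:**
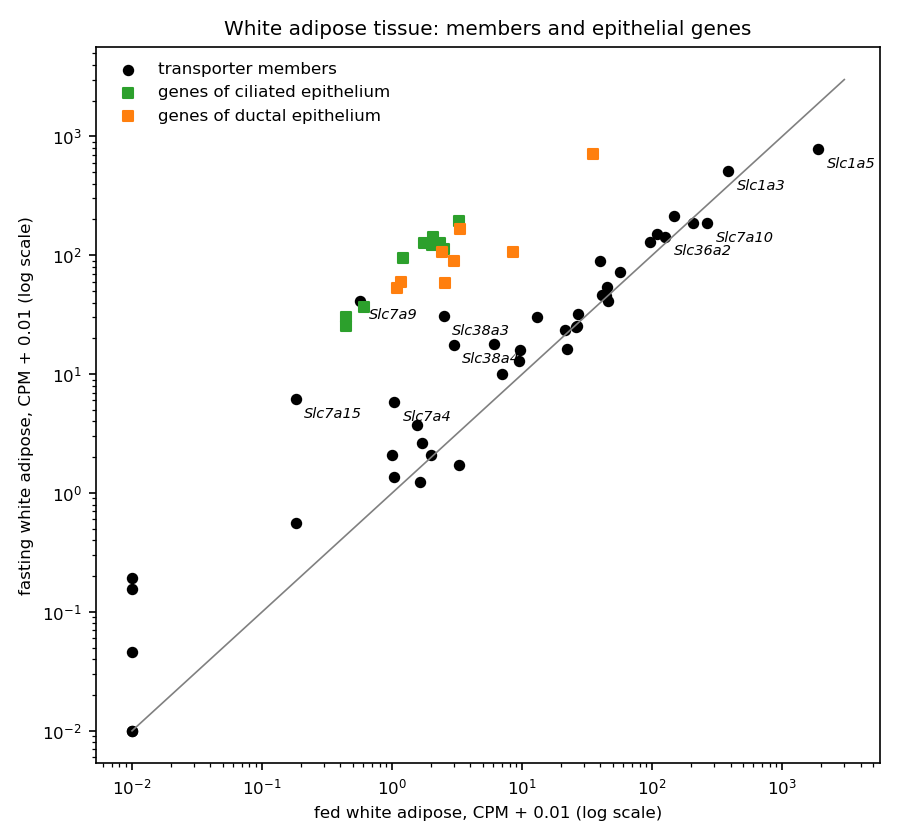
CPM + 0.01 of the 42 members (black) and of the genes of the ciliated (green) and ductal (orange) epithelium lists in fed (x axis) and fasting (y axis) white adipose, both axes log, with the line of equal values. Slc7a9 (0.558 and 41.6 CPM) lies near the epithelial genes, which were chosen after the values were seen. Slc7a15 (0.172 and 6.16 CPM) lies at lower values than these genes on both axes. Most members lie by the line, and Slc1a5 lies below it.

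The lowest members gave little to compare. Slc1a6, Slc7a14, Slc7a15, Slc36a3 and Slc38a8 did not pass the filter of the fit across tissues, and of these only Slc7a15 had a library above 0.491 CPM. Slc38a8 never exceeded 4 counts in a library. Slc1a6, Slc7a14, Slc36a3 and Slc38a8 were called in no tissue, and a small change in them was not detectable at this depth.

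The members were set beside 3 lists of related genes. Of all genes, 8.37% were higher and 10.3% lower at an unadjusted p under 0.05 in the same edgeR fit, and 5.13% and 6.03% by DESeq2. Of 19 other amino acid and peptide carriers and partners tested across tissues, 1 was called higher and none lower by edgeR (1 and 2 at an unadjusted p under 0.05, and 1 and 1 by DESeq2). The called gene was Slc15a2 (PEPT2), a carrier of small peptides, with a log2 change of 0.69 ± 0.15 (SE, adjusted p = 0.0475). Its largest change was in muscle, from 4.03 to 10.96 CPM, and it was higher in 7 of 8 tissues. Of 20 genes of the amino acid stress response, Atf4 itself and targets of this factor, 1 was called higher and none lower by edgeR (8 and 1 at an unadjusted p under 0.05, and 4 and 1 by DESeq2). The called gene was Ddit4 (REDD1), an inhibitor of mTORC1 that glucocorticoids also induce, with 2.53 ± 0.39 (SE, adjusted p = 0.0147), higher in all 8 tissues and in muscle at 4.65 CPM fed and 164 CPM fasting. Of 22 genes of mTORC1 and lysosomal amino acid sensing, edgeR called none across tissues in either direction (3 higher and 3 lower at an unadjusted p under 0.05, and 3 and 3 by DESeq2). The medians of the 3 lists were 0.33, -0.04 and -0.01 (log2), against -0.01 over all genes.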

How the data were processed

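Short-read RNA-seq of pooled tissue was analysed. The authors made strand-specific libraries, read 100 bases from each end, trimmed with fastp 0.23.2, checked with FastQC 0.11.8, aligned with HISAT2 2.2.1.0 to GRCm38 and counted with featureCounts (Subread 2.0) on GENCODE release 24 for mouse. The deposited table holds raw counts per gene, not normalized, with the gene length. The strand setting, and whether reads or pairs were counted, are not given in the sources used here, so reads of overlapping genes on opposite strands may not be separated. The 37 mitochondrial genes have no counts. Symbols were matched by gene ID (55144 of 55385), and coordinates are those of the deposited table.

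CPM was computed on library totals and TPM from the deposited gene length. Across tissues, edgeR 4.0.16 (R 4.3.3) fitted tissue and treatment to the 16 libraries by quasi-likelihood with TMM factors, the filterByExpr filter and Benjamini-Hochberg adjustment, with a common coefficient of variation of 0.219. The standard error is the log2 change over the root of F. Each tissue was compared with the mean of the other 7 in the same fit, where its fed and fasting libraries served as its 2 libraries. Within a tissue, the rule was a log2 ratio above 0.5 in size and Fisher p under 0.01 (computed with numba 0.67.0), and since this compares 2 libraries no p is printed. Alternatives were other scalings, DESeq2 1.42.0, filters, a pseudocount of 1 CPM, left-out tissues and assumed variation between pools. The edgeR fit of treatment across tissues and the rule within a tissue were tested on simulated data. The comparisons of tissues, DESeq2 and the assumed variation between pools were not.

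Members named with values are those called across tissues, both heavy chains, the 2 highest in TPM per tissue, those with a tissue log2 difference above 3, those with a called log2 ratio above 1 and at least 5 CPM, and those called in opposite directions. Further values of other members are given by their call. The rule for members uses symbols and gene types alone, but these families were chosen for description, as were the lists and rules, with earlier results of these data known.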

Additional observations from a re-analysis of the deposited data

Results flagged for a closer look

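With 1 library per tissue and treatment, no group was large enough to look for a sample far from the others. For 4 members with at least 5 CPM, the fasting and fed libraries of different tissues differed in opposite directions past the fold and Fisher thresholds, and in each case the difference between tissues was not tested. They were 11.4% of the 35 members that reached this level, against 7.22% of all genes that did. Without the limit there were 6 members (14.3%, against 5.72% of genes), the others being Slc7a11 and Slc36a2. The log2 ratio of fasting to fed CPM of Slc1a4, a serine and alanine exchanger, was -2.304 in liver and -0.732 in kidney but 0.778 in brown adipose. That of Slc7a8, a light chain for neutral amino acids, was 1.137 in muscle, 3.25 in brown adipose and 1.012 in heart but -0.58 in liver. That of Slc38a1 was 1.227 in white adipose and -0.517 in heart. That of Slc38a3, a glutamine carrier, was 1.769 in kidney and 3.617 in white adipose but -0.516 in muscle and -0.531 in heart, and the white adipose value stands beside the rise of the ciliated and ductal epithelium genes in the same library, whose part was not tested.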

How the results depend on the processing

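Each fed library was paired with the fasting library of its tissue by the tissue block, since the labels give no replicate numbers. Without the tissue block (no replicate block), edgeR called 0 members and 0 genes across tissues (0 members and 157 genes at an unadjusted p under 0.05), against 2 members and 1.87% of genes with it, Slc43a1 was at 1.769 and Slc43a3 at 0.837, and Slc3a1 turned from -0.218 to 0.005. DESeq2 called 4 members (11.2% of all genes) and the fit without both adipose tissues 1 (0.678%). With 1 tissue left out the count was 1 to 2 (0.346% to 2.11% of all genes), and Slc3a1 ran from -0.36 without white adipose to 0.175 without liver. Slc43a3 kept its call under every other alternative. A filter by treatment group, chosen after seeing the data, left both calls (4.39% of all genes). In the tissue pattern, total counts in place of TMM gave 3 higher members in muscle, 21 in white adipose, 12 in spleen and 17 in lung, against 6, 13, 7 and 11 (7.08%, 27.8%, 39.3% and 35.8% of all genes, against 15.7%, 17.3%, 24.8% and 23.2%), and all 30 log2 differences checked kept their direction. DESeq2 lost the kidney call of Slc7a12. Within tissues, the members called under a log2 threshold of 1 were 7 in muscle, 4 in liver, 11 in white adipose, 4 in brown adipose, 3 in heart, 0 in spleen, 4 in kidney and 3 in lung (1.64% of all genes in spleen to 11.1% in white adipose). When pools were taken to vary by a coefficient of 0.2, they were 5 in muscle, 3 in liver, 9 in white adipose, 4 in brown adipose, 2 in heart, 0 in spleen, 3 in kidney and 3 in lung (0.827% to 8.51% of all genes in the same 2 tissues). With 0.4 they were 2 in muscle, 5 in white adipose, 1 in brown adipose and 0 in liver, heart, spleen, kidney and lung (0.165% of all genes in kidney to 4.02% in white adipose). Of 29 single values followed within tissues, 21 lost their call at 0.4 and 2 at 0.2, with the direction unchanged. A larger assumed spread passes fewer pairs by construction, and the cause of the other shifts was not tested. Members below 0.2106 CPM are at or under 3 counts in the shallowest library.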
